A study of Mus musculus with 18 samples.

Results

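Distal regions with H3K27ac in libraries labelled as erythroblasts (ERY) and as immature megakaryocytes (iMK) were selected on the H3K27ac peak lists themselves. Peaks of the 4 lists were joined where they shared at least 1 bp. A merged region was kept when it was under 10 kb wide, lay over 1 kb from the transcription start site (TSS) of any protein-coding transcript, and was touched by a peak of all 4 lists. Of 42199 merged regions, 1140 met this rule (2.70%), or 3.77% of the 30278 distal regions of that width. These are called shared distal regions here. That they carry H3K27ac in all 4 libraries is therefore how they were chosen and not a result. Marker genes, given below, went against the iMK label, so these are regions shared by the ERY and the iMK-labelled libraries, and the second cell type is in doubt. At the edges of the rule, the largest width was 9800 bp, reached among others by the regions nearest Dnajb12 and Rnf187, and 2 regions nearest Man1a and Cdk17 were left out at 10000 bp. The members closest to a start lay 1024 bp from Lipe and 1080 bp from Sbk1, and regions 880 bp from Gm21970 and 872 bp from Rnf141 were left out.

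The cells were sorted from the bone marrow of adult C57BL6 mice, male by the study's methods, with no treatment or engineered allele. ERY, the nucleated precursors of red cells, were sorted as Ter119+, CD44+ cells of low forward scatter, and iMK, precursors of the platelet-forming cells, as CD41+, CD61+, Ter119-, Sca1-, cKit- cells. Both sorts excluded cells with CD4, CD8, IL7Ra, CD11b, Ly6g or CD45R. Each of 2 marks had 2 ChIP-seq libraries per cell type, which the study's methods describe as biological replicates from different groups of mice or from separately sorted portions of the same mice. Replicate numbers here follow the order of deposit and only name libraries.

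H3K27ac is an acetylation of histone H3 that is laid down by p300 and CBP at active promoters and enhancers. H3K4me3, a methylation of the same histone, is found mainly at the starts of transcribed genes. A region with H3K27ac that lies away from a promoter is therefore usually taken as a candidate active enhancer. ERY and megakaryocytes descend from a common progenitor and both use GATA1, TAL1 and RUNX1, while ETS factors such as FLI1 act mainly on the megakaryocyte side and KLF1 on the erythroid side.

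The H3K27ac lists held 21768 to 25750 peaks over 42.9 to 77.0 Mb, and the H3K4me3 lists 6275 to 13222 peaks over 9.02 to 33.8 Mb. H3K4me3 iMK replicate 2 stood apart with the most peaks and the longest cover. The peak lists do not hold the read depth, which is unknown here. Each peak carries a fold of ChIP over control. Its median was 3.06 and 2.77 in ERY and 5.79 and 5.65 in the iMK-labelled libraries, so folds were compared between lists only as percentiles within a list or relative to other regions. The erythroid markers had a called promoter in both ERY lists at 5 of 5 genes. In the iMK-labelled libraries the megakaryocyte markers had one at 2 of 8 genes, fewer than the 4 of 8 in each ERY list. Their summed locus cover (percent of the gene with 10 kb on each side, added over genes) was 56.0 and 73.5 there and 186 and 180 in ERY. There was no H3K27ac peak within 10 kb of Itga2b, which encodes the sort marker CD41, or of Pf4 in the iMK-labelled libraries, and at Pf4 none in ERY either. Myeloid markers had a called promoter there at 7 and 10 of 10 genes and in ERY at 0 of 10. The summed cover of the myeloid loci ran from 5.38 to 15.9 in ERY and from 222 to 390 in the iMK-labelled libraries. Of the shared distal regions, 0 had a myeloid marker as the nearest gene and 1 a megakaryocyte marker (Vwf). What the myeloid signal contributes to the shared distal regions was not tested.

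To show what these regions look like, 7 windows of 200 bases are given on the plus strand of mm10, each inside bases that all 4 lists covered, outside annotated exons, and chosen as the window of its region with the most matches to 16 fixed motifs. They belong to regions near regulators of blood cells or to the regions of highest fold. Capitals mark motif matches on either strand: AGATAA for GATA factors, CAGGAAGT for ETS factors, CAACTG for MYB, TGTGGTT for RUNX factors, CAGATG (E-box) for TAL1 and its partners, GCGCATGCG for NRF1, and AGGGGGCG for CTCF.
Cd34, chr1:194879801-194880000: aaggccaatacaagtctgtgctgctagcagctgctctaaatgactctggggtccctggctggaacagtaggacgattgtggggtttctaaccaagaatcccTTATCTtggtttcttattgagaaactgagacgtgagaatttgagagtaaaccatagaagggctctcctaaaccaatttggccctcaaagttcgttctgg
Lmo2, chr2:103945001-103945200: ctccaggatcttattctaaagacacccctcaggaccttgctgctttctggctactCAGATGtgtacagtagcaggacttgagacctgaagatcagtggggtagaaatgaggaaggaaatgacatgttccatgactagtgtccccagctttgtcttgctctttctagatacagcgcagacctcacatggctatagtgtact
Stat5b, chr11:100814601-100814800: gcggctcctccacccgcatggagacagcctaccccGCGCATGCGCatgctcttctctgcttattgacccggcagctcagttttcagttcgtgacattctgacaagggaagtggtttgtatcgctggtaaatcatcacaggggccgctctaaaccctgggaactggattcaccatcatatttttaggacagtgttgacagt
Max, chr12:77085601-77085800: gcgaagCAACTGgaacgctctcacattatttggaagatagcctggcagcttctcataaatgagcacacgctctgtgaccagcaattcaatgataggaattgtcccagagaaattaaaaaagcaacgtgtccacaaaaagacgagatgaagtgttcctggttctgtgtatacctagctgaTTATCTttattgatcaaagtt
Mxi1, chr19:53318401-53318600: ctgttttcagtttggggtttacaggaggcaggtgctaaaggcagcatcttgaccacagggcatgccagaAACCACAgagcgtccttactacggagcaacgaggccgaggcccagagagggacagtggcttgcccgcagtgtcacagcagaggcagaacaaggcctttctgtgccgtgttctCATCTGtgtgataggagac
Chd2, chr7:73616801-73617000: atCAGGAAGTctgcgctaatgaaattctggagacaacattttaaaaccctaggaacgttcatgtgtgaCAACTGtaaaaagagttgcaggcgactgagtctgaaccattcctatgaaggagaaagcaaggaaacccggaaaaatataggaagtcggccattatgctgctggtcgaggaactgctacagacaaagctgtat
Arid1b, chr17:5190201-5190400: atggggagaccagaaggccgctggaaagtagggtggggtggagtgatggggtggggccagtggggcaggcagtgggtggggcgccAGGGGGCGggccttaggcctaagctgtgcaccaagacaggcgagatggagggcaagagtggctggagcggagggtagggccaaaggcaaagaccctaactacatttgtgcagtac
The Cd34 window holds a GATA match read on the minus strand, the Lmo2 window an E-box, and the Max window a MYB and a GATA match. The capitals in the Stat5b window are 2 NRF1 matches that overlap on opposite strands. A match describes the letters only and is no evidence of binding. Of all 200-base tiles of shared distal regions, 10.6% held the GATA letters and 0.169% the NRF1 letters.

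The shared distal regions were wider than the peaks that made them. Their median width was 3600 bp (400 to 9800 bp), and the median length covered by a list was 2400 and 2000 bp in the ERY libraries, against 1800 and 2200 bp in iMK replicates 1 and 2. The bases covered by all 4 lists at once had a median of 1000 bp. In 102 regions there were none, and which lists failed to overlap there was not examined. A total of 1038 regions had at least 1 such base, and 384 had at least 50% of their width covered in every list. Within a list the members ranked near the middle by fold. The median percentile of a member's highest peak was 58.1 and 50.4 in the ERY lists and 46.6 and 51.5 in the lists labelled iMK, against 81.0, 73.3, 79.7 and 80.7 for the 6769 regions that all 4 lists called near a protein-coding TSS.

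A median of 16246 bp separated a shared distal region from the nearest protein-coding TSS, with quartiles of 6493 and 34871 bp. Only 59 regions (5.18%) lay over 100 kb away, against 9.55% of the 5919 distal regions called in both ERY lists alone and 13.1% of the 7002 called in both lists labelled iMK alone. The centre of 560 of them (49.1%) lay inside the body of a protein-coding gene, against 66.1% of the ERY-only and 52.6% of the iMK-only distal regions. Exons of protein-coding genes made up 4.78% of their bases. Chromosome 11 held 0.704 regions per Mb and chromosome X 0.134 per Mb.

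Some of the shared distal regions sat at the starts of RNAs that the rule did not consider. Although all of them lie over 1 kb from a protein-coding transcript's TSS, 370 (32.5%) came within 1 kb of some other annotated TSS. The share was 15.6% among ERY-only and 13.7% among iMK-only distal regions, but 44.3% among the 201 distal regions in all 4 lists that were too wide for the rule. These shares were not adjusted for the width of the regions. A noncoding gene started within 1 kb of 282 members (24.7%, against 7.57%, 9.50% and 35.8% in the same order), and a further 88 lay only near a noncoding transcript of a protein-coding gene. Of the 282, 157 were closest to a long noncoding RNA gene, 47 to a pseudogene, 39 to a small nuclear, nucleolar or Cajal body RNA gene, 19 to a gene of the class TEC, which still awaits experimental evidence, and 11 to a microRNA gene. The 770 members over 1 kb from any annotated TSS had a median lowest percentile of 22.2, the lowest of a region's 4 within-list values, and the 282 near a noncoding gene 38.9.

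**Figure D1:**
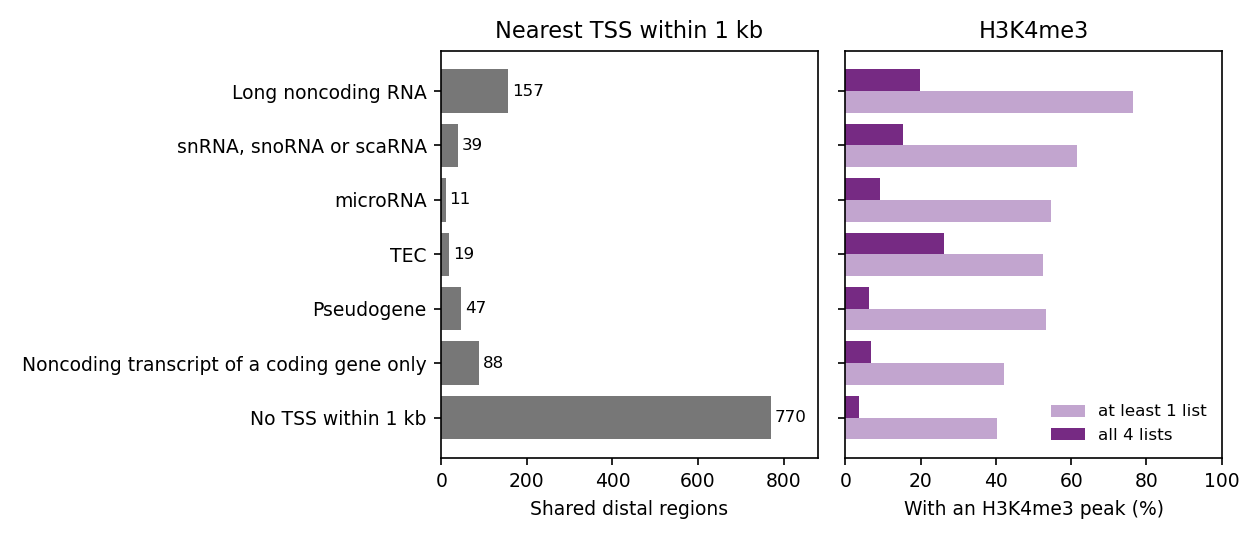
Number of shared distal regions by the annotated TSS within 1 kb (left) and the percent of each kind with an H3K4me3 peak (right) in at least 1 list (light) or in all 4 lists (dark); 9 regions near other noncoding gene types are not drawn. Long noncoding RNA starts make up 157 regions, and 76.4% of them carry H3K4me3 in at least 1 list, against 40.3% of the 770 regions with no TSS within 1 kb.

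The members with the highest fold in all 4 lists were often such starts. They were ranked by the lowest of their 4 percentiles, and 5 of the first 10 lay within 1 kb of an annotated TSS. On chromosome 7 the region chr7:73551001-73560400 covered the start of the noncoding gene 1810026B05Rik, 9255 bp from Chd2, which encodes a chromatin remodeler. Its fold was 5.56 in ERY replicate 1, 8.32 in ERY replicate 2, 22.8 in iMK replicate 1 and 28.7 in iMK replicate 2, and other regions are given in this order. A second region 74655 bp from the Chd2 start, chr7:73616401-73620200, had folds of 8.17, 7.47, 23.7 and 30.5 in the same order and no annotated start within 1 kb. Both regions stood at percentile 96 or above in every list, and both were touched by H3K4me3 in all 4 lists. A total of 5 members were nearest Chd2, and the other 3 had a lowest percentile of 4.84, 13.9 and 40.0.

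Another strong pair lay on chromosome 14. At chr14:61677801-61685000, 70319 bp from Kcnrg and at a TEC gene, Gm37472, the fold was 13.9, 10.8, 25.5 and 17.8. The neighbouring member chr14:61644401-61651800, 36919 bp from Kcnrg, covered a start of Dleu2, the host transcript of the microRNAs miR-15a and miR-16-1, and its fold was 11.3, 9.42, 17.6 and 12.8. Both had H3K4me3 in all 4 lists. In an intron of Arid1b, which encodes a subunit of the BAF chromatin remodeling complex, chr17:5188401-5191400 had folds of 7.27 and 6.12 in ERY and 18.2 and 19.8 in the iMK-labelled libraries. It lay 191980 bp from the nearest protein-coding TSS and held no annotated start, and 2 of 4 H3K4me3 lists touched it. At chr9:20606801-20608200 the start of the antisense gene Fbxl12os had folds of 14.4, 9.67, 20.6 and 16.6.

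Members on chromosome X were few and strong. Being few was not particular to them: chromosome X held 2.02% of members, 1.54% of ERY-only, 0.914% of iMK-only distal and 1.45% of all merged regions. Of 23 members there, 4 were among the first 10, and the median lowest percentile of the 23 was 81.0 against 24.9 for the autosomal members. The first of all, chrX:150475801-150479200, 16651 bp from Tmem29, had folds of 9.56, 8.97, 41.0 and 35.3. The start of Gm6787, 5103 bp from Was, which encodes the actin regulator lost in Wiskott-Aldrich syndrome, had folds of 17.5, 12.2, 32.0 and 17.2. This region has a near-identical copy elsewhere in the genome. Jpx and Ftx are noncoding genes beside Xist that act in X inactivation in female cells, and these mice were male. Their starts had folds of 14.8, 9.04, 24.5 and 14.1 and of 7.29, 4.68, 19.1 and 16.8.

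**Figure D2:**
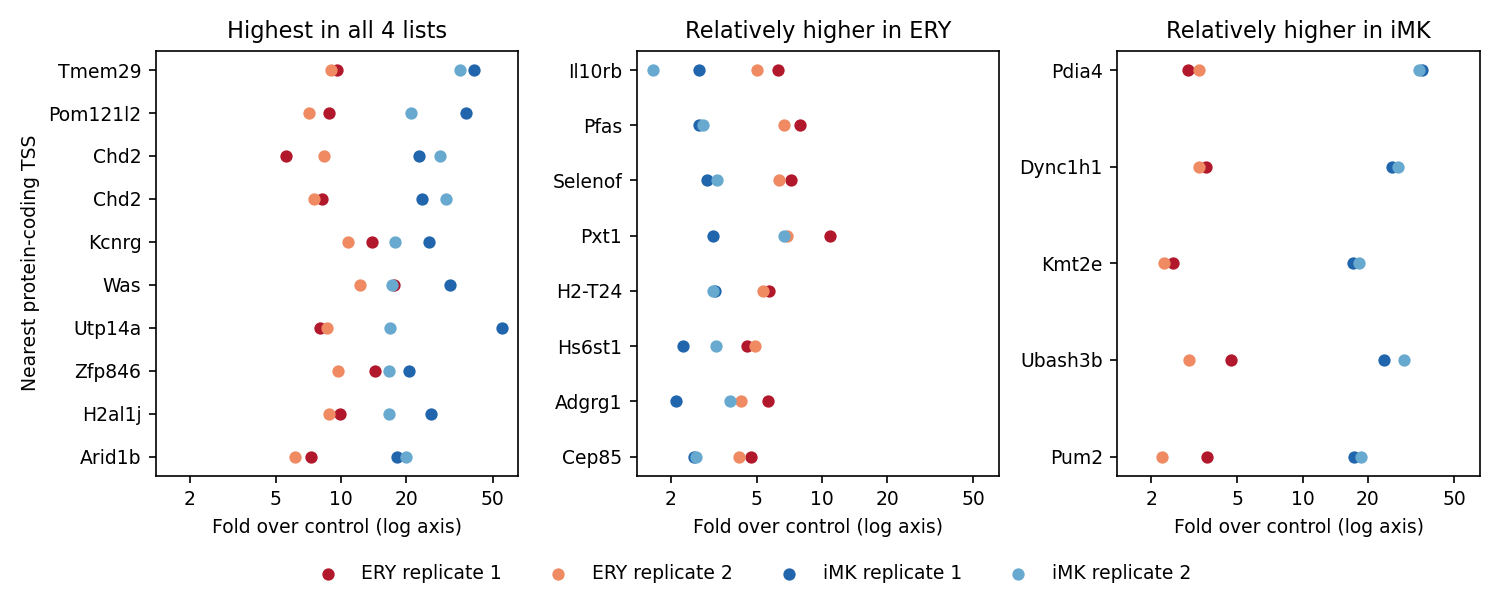
Fold of ChIP over control (log axis) in each H3K27ac library for named shared distal regions, each labelled by its nearest protein-coding TSS: the 10 with the highest lowest percentile (left), and those with the largest difference in relative fold toward ERY (middle) and toward iMK (right). Each point is 1 library. At Pdia4 the ERY libraries stand near 3 and those labelled iMK near 35.

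Small RNA genes of the splicing and ribosome machinery formed compact groups of members. Spliceosomal U RNAs and nucleolar RNAs are made in every cell type. The genes with the most members were Eapp with 6, then Chd2, Foxn3, Tbxas1 and Zfp217 with 5 each, and Chsy1, Klf3, Map3k1, Rftn1, Tex14 and Ugcg with 4 each. The 6 regions nearest Eapp, between chr12:54709401 and 54739600, each covered the start of a different snRNA gene. Their folds ran from 2.496 to 8.38 in ERY replicate 1, 2.09 to 7.80 in ERY replicate 2, 6.76 to 21.5 in iMK replicate 1 and 4.54 to 15.7 in iMK replicate 2. The 4 regions nearest Tex14 covered the starts of Rnu3b1, Rnu3b2, Rnu3b3 and Rnu3b4, genes of the U3 RNA that guides ribosomal RNA processing. This group was singled out after its values were seen. At Rnu3b4 the fold was 7.71 and 4.44 in ERY and 11.5 and 9.69 in the iMK-labelled libraries, and at Rnu3b1 it was 5.72 and 3.31 against 14.2 and 20.7.

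These arrays contain repeated copies. A near-identical stretch elsewhere in the genome, of at least 500 matching bases at 98% identity or more, was found for 44 shared distal regions (3.86%), including all of those at Eapp and Tex14, against 1.27% of ERY-only and 0.928% of iMK-only distal regions. Reads from one copy may count for another, and the study's methods state that reads mapping to several places were kept, so the values of single copies are uncertain. H3K4me3 touched 24 of the 39 members at small nuclear, nucleolar or Cajal body RNA genes, and 0 of 4 at Tex14. Only 6 of the 39 were touched in all 4 lists, among them Scarna2, whose fold was 10.9, 4.58, 8.79 and 7.25, and the snRNA gene Gm25890 with 13.3, 10.3, 14.5 and 11.02.

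Regions at named microRNA and X-linked noncoding genes were picked after their values were seen. Among microRNA genes, Mirlet7i started inside a member with folds of 5.72, 6.14, 24.8 and 22.6 and H3K4me3 in all 4 lists. Mir22hg, the host transcript of miR-22, lay in a member with folds of 4.85, 2.76, 15.1 and 15.8 and H3K4me3 in all 4 lists. Both had higher folds in the iMK-labelled libraries, as the typical peak did.

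H3K4me3 was not used to choose the regions and was asked next. It touched 28.2% and 12.2% of the shared distal regions in the ERY libraries, against 12.4% and 44.8% in iMK replicates 1 and 2. Among ERY-only distal regions the shares were 1.67%, 0.422%, 0.0676% and 1.32%, and among iMK-only distal regions 0.243%, 0.0857%, 0.985% and 14.0%. The share was higher in the shared distal regions than in these 2 classes in 4 of 4 H3K4me3 libraries. Members were also wider, with a median of 3600 bp against 2800 bp for ERY-only and 2200 bp for iMK-only distal regions. Median fold percentiles were 43.3 and 40.4 for ERY-only regions in the ERY lists. For iMK-only regions they were 35.2 and 40.3 in the lists labelled iMK, so both classes ranked below the members. The shares were not adjusted for width or rank. Away from annotated starts the order of the shares was the same. Over the 770 members more than 1 kb from any annotated TSS the shares were 22.5%, 8.18%, 7.66% and 37.7%, against 1.40%, 0.280%, 0.0800% and 1.12% for ERY-only regions and 0.199%, 0.0827%, 0.596% and 11.7% for iMK-only regions limited in the same way. Near a protein-coding TSS, regions in all 4 lists had 94.7%, 73.1%, 78.4% and 98.7%. The 201 distal regions in all 4 lists that were too wide for the rule had 26.4%, 12.9%, 4.98% and 27.4%. Over all merged regions the shares were 18.7%, 13.1%, 16.4% and 27.6%, so members stood below them in ERY replicate 2 and iMK replicate 1. With 2 libraries against 2 an exact permutation test cannot give a two-sided p under 0.333, and the ERY and iMK shares of the members overlapped.

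**Figure D3:**
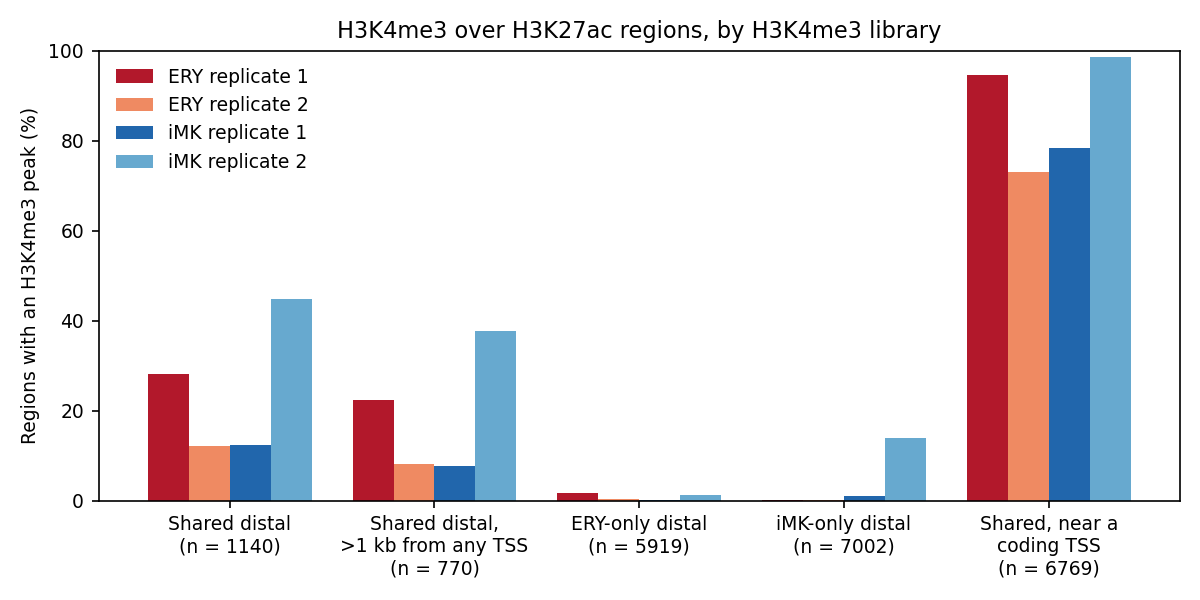
Percent of regions with an H3K4me3 peak (y axis, from 0) in each class of H3K27ac region, with 1 bar per H3K4me3 library (ERY in red, iMK-labelled in blue). The shared distal regions reach 12.2% to 44.8%, and the ERY-only distal regions 1.67% at most.

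A total of 538 members (47.2%) had H3K4me3 in at least 1 list and 82 (7.19%) in all 4. Over all merged regions the shares were 28.7% and 10.7%, and over the wide distal regions in all 4 lists 40.8% and 2.99%. Without iMK replicate 2, 338 members had H3K4me3 in at least 1 list. Members touched by 1, 2 and 3 lists numbered 223, 137 and 96, and 602 had none. Of the 82, 55 lay within 1 kb of some annotated TSS and 27 did not. Where H3K4me3 was called it covered a median of 1200 bp of the member in ERY replicates 1 and 2 and iMK replicate 1 and 1800 bp in iMK replicate 2, against 1800, 1400, 1400 and 2400 bp at regions near a protein-coding TSS in all 4 lists, given as ERY replicates 1 and 2 and iMK replicates 1 and 2.

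The 6 members with H3K4me3 in all 4 lists that stood highest in H3K27ac were both Chd2 regions, those nearest Kcnrg and Zfp846, chr1:171037001-171038800 and chr17:69416201-69418800. The region on chromosome 1 lay 18081 bp from Fcgr4, an Fc receptor gene of myeloid cells, with folds of 6.71, 5.63, 18.8 and 16.0 and no annotated noncoding gene starting within 1 kb. The region on chromosome 17 covered the start of the long noncoding RNA gene C030034I22Rik, with folds of 7.32, 5.30, 28.0 and 46.1.

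The covered share of H3K4me3 was compared between ERY and the iMK-labelled libraries with limma, over the 12100 merged regions that H3K4me3 touched in at least 1 library. No member passed the adjusted threshold of 0.05 in either direction (0 of 538), and the percent called over all regions was 0%. At an unadjusted p under 0.05 there were 8 members and 816 of all regions. Leaving out 1 library changed this count. Without iMK replicate 1, 222 members were called higher in the iMK-labelled libraries, and without iMK replicate 2, 10 were, with 0 passing as higher in ERY in both fits, and without either ERY library 0 passed. The spread then came from the other group alone, and without iMK replicate 1 the only iMK library was the one that stood apart in peak number.

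The nearest genes included regulators of both lineages. A total of 937 of 21864 protein-coding genes (4.29%) were nearest to at least 1 shared distal region, 786 of them to only 1. Of the 937 genes, 202 were also nearest to an ERY-only and an iMK-only distal region, 206 to an ERY-only region and no iMK-only one, 205 the reverse, and 324 to neither. A promoter with H3K27ac in all 4 lists belonged to the nearest gene of 784 members (68.8%), against 65.4% of ERY-only and 40.5% of iMK-only distal regions and 35.5% of all protein-coding genes. H3K4me3 in all 4 lists at that promoter was found for 50.7% of members, 50.8% of ERY-only and 27.6% of iMK-only regions. The nearest TSS is only a label here, since enhancers can act on genes further away.

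By gene list, shared distal regions were nearest to 7 of 18 immediate early and stress response genes, 5 of 16 megakaryocyte cytoskeleton genes, 4 of 12 cytokine feedback and NF-kB genes, 4 of 14 MYC network and cell cycle genes and 5 of 19 chromatin regulators. The background is the 4.29% of all protein-coding genes. Other lists stood near or below that background: 1 of 20 globin and heme genes, 1 of 23 red cell membrane genes, 1 of 23 platelet and megakaryocyte surface genes, 0 of 10 ETS and megakaryocyte transcription factors and 0 of 14 lymphoid genes. ERY-only distal regions lay nearest 12 of the 23 red cell membrane genes, against 14.0% of all genes. For iMK-only distal regions it was 8 of the 10 ETS and megakaryocyte factors, against 17.3% of all genes. The iMK-only regions also lay nearest 10 of 18 immediate early and 10 of 19 chromatin genes. They lay nearest 7 of 14 MYC network, 6 of 12 cytokine, 4 of 16 cytoskeleton and 11 of 22 myeloid genes. In the same order, ERY-only regions lay nearest 4, 7, 6, 2, 4 and 1 of these genes. The remaining lists held 3 of 18 shared red cell and megakaryocyte regulators, 2 of 10 autophagy and survival genes, 2 of 10 stem and progenitor genes, 3 of 22 myeloid genes and 1 of 15 housekeeping genes. The counts were not adjusted for the length of the genes or of the gaps between them.

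The immediate early and stress response list collected 10 members. Zfp36l1 encodes a protein that binds AU-rich messenger RNAs and speeds their decay, and the region 16788 bp from it, at the noncoding gene 2310015A10Rik, had folds of 6.94 and 6.06 in ERY and 13.8 and 11.7 in the iMK-labelled libraries. Its relative Zfp36l2 was nearest to 3 members, with a lowest percentile of 8.47 to 30.6. Ier2, a gene induced early by growth factors, was nearest to 2 members. The stronger, which overlapped Cacna1a in part, had folds of 4.57, 5.55, 9.88 and 9.90. For Cxcr4, the receptor that holds blood precursors in the marrow, folds were 2.88, 2.69, 4.62 and 6.67. Members nearest Fos, Egr1 and Dusp1 stood lower, with a lowest percentile of 1.32, 22.2 and 7.03.

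The regulators known to act in both lineages had 4 members, beside 34 ERY-only and 16 iMK-only distal regions. Lmo2 encodes the bridging protein of the TAL1 and GATA1 complex. The region 7786 bp from its TSS, chr2:103942401-103950200, had folds of 2.34 and 1.99 in ERY and 6.52 and 5.57 in the iMK-labelled libraries. Stat5b, a transducer of erythropoietin and thrombopoietin signals, had 2 members in its body, with folds of 2.33, 3.84, 4.03 and 5.65 at chr11:100813601-100820600 and of 3.46, 3.14, 3.80 and 7.04 at chr11:100840201-100842600. At Runx1 the member had folds of 1.88, 1.69, 3.87 and 3.66 and a lowest percentile of 8.10. All 4 regions were of moderate or low rank, and 0 of them stood above percentile 30 in every list.

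Stem cell genes and the MYC network gave a few members of note. The Cd34 region, chr1:194879601-194880200, was only 600 bp wide, with 400 bp covered by all 4 lists, and had folds of 4.01 and 3.33 in ERY and 8.67 and 9.27 in the iMK-labelled libraries. Cd34 encodes a surface protein of blood progenitors. The Myb region, chr10:21186801-21190800, 25817 bp from the gene of this progenitor transcription factor, had folds of 3.55, 2.74, 4.30 and 3.57, with a start of the noncoding gene Gm33619 inside. The Myc region lay 50179 bp from the Myc TSS at a start of Pvt1, the noncoding gene beside it, with folds of 4.27, 2.59, 5.12 and 6.42. Max encodes the partner of MYC and Mxi1 an antagonist that competes for it. Folds were 2.22, 2.93, 4.52 and 5.21 at the Max region, 121800 bp from the TSS, and 2.67, 3.82, 9.24 and 10.9 in the Mxi1 intron. Cdk6, a cell cycle kinase gene, was nearest to 2 members with a lowest percentile of 8.65 and 3.93.

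Chromatin and signalling genes followed. Ezh2 and Eed encode subunits of the Polycomb repressive complex that methylates H3K27. The Ezh2 region, chr6:47635001-47638800, had folds of 6.10, 3.90, 6.91 and 6.79, and Eed was nearest to 3 members with a lowest percentile of 6.24 to 28.9. The region nearest Ncor1, a corepressor gene, had folds of 2.68, 3.07, 8.39 and 5.07. Tnfaip3, an inhibitor of NF-kB signalling, had a region 45144 bp away with folds of 3.69, 3.28, 6.49 and 11.1. In Stat3, a cytokine signal transducer gene, folds were 6.42 and 4.41 in ERY and 3.23 and 6.03 in the iMK-labelled libraries, and at Rela, an NF-kB subunit gene, 2.60 and 1.56 against 6.09 and 3.57.

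Some genes of one lineage had 1 or 2 members. At Vwf, the von Willebrand factor gene of platelets and endothelium, chr6:125572201-125579800 had folds of 5.27 and 4.16 in ERY and 8.33 and 10.9 in the iMK-labelled libraries. It was 72.4 percentage points more covered in ERY. Epb41 encodes a protein of the red cell skeleton, and chr4:132038201-132043400 in its body had folds of 4.19, 2.79, 6.63 and 7.93. Hmox1 encodes the enzyme that breaks down heme, and the region 6221 bp from it had folds of 3.58, 3.25, 3.69 and 4.27. Foxo3 and Mcl1, of erythroid survival, had 1 and 2 members. At the Mcl1 region chr3:95648001-95655800 folds were 1.98 and 1.81 in ERY and 9.11 and 12.3 in the iMK-labelled libraries, where folds were generally higher. Relative to other regions its log2 fold differed by -1.27, which limma did not call (adjusted p 0.067). At Was, Vcl and Diaph1, cytoskeleton genes used in platelet formation, lowest percentiles were 95.0, 31.9 and 30.6. Myeloid genes had members at Fcgr3, Cebpe and Cebpb, with a lowest percentile of 45.5, 20.2 and 15.6.

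Groups of several members lay along 4 further genes. Foxn3, a forkhead repressor gene, held all 5 of its members in its body, with a lowest percentile of 10.3 to 58.3. Tbxas1, which encodes thromboxane synthase of platelets, also held its 5 in its body, with a lowest percentile of 0.851 to 21.3, and 3 of them had no base covered by all 4 lists. Those nearest Zfp217, a repressor gene, lay between chr2:170172601 and 170221800, with a lowest percentile of 3.33 to 27.8. Klf3, an erythroid-expressed repressor gene of the KLF family, had 4 members up to 196988 bp away beside 22 ERY-only and 2 iMK-only distal regions.

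How the members varied between the cell types is described without weight, since the rule used the same H3K27ac libraries. Across the 1140 members the fold percentile correlated at a Spearman rho of 0.529 between ERY replicates, 0.588 between those labelled iMK, and 0.247 to 0.331 across cell types. For covered length rho was 0.749, 0.707 and 0.230 to 0.296. Libraries of a cell type may share mice, and each list has its own depth and control.

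**Figure D4:**
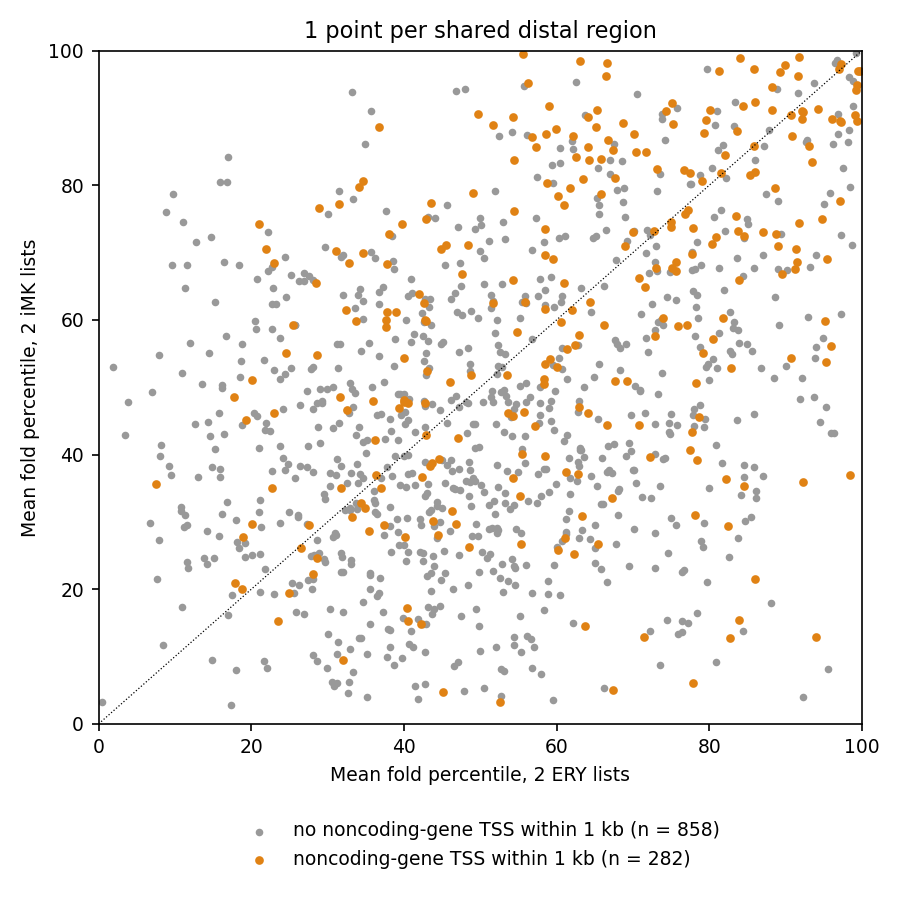
Mean within-list percentile of fold in the 2 ERY lists (x axis) against that in the 2 lists labelled iMK (y axis), with 1 point per shared distal region; orange points lie within 1 kb of a noncoding-gene TSS (n = 282), grey points do not (n = 858), and the dotted line marks equal values. Points spread widely around the line.

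Peaks were longer in both ERY libraries than in both libraries labelled iMK at 421 members (36.9%) and shorter at 215 (18.9%), and the groups overlapped or tied at 504. The same held at 48.2% and 14.6% of the 8110 regions in all 4 lists. In limma's test of the covered share 212 members were higher in ERY and 92 higher in the iMK-labelled libraries. The share called over all 26275 tested regions was 31.1% and 30.7%, and over the 8110 regions in all 4 lists 28.2% and 6.17%. With each library centred on its median over those 8110 regions the member counts were 116 and 281, so the direction depended on the scaling. The calls fell to between 177 and 193 of 304 without any 1 of the 4 libraries. Members with the largest differences toward ERY were nearest BC107364, Il10rb, Popdc2 and Plxnc1, at 82.2 to 92.2 percentage points, and toward iMK nearest Sort1, Gatad2a, Diaph1 and Rbx1, at -75.0 to -73.1.

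Relative fold was the log2 fold of a region in a library less the median over regions in all 4 lists. By limma 29 members were higher in ERY and 5 in the iMK-labelled libraries, with 1.47% and 0.703% called over all 8110 regions. Because this contrast was part of the choice of members, nothing is read from the counts. Without ERY replicate 1 or ERY replicate 2 limma called 0 members (210 and 181 at an unadjusted p under 0.05), and without iMK replicate 1 or iMK replicate 2 it called 145 and 244. In such a fit the group with 1 library is assumed to vary like the other, which alone supplies the spread. The relative differences themselves moved little without an ERY library, from 2.61 to 2.69 and 2.53 at the region nearest Pfas and from 2.34 to 2.46 and 2.22 at that nearest Selenof.

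The largest relative differences toward ERY were at regions where the raw folds did not overlap either, although folds in ERY were generally lower. At a distance of 28566 bp from Il10rb, which encodes a subunit of the interleukin 10 receptor, chr16:91434801-91444600 had folds of 6.26 and 5.03 in ERY and 2.72 and 1.66 in the iMK-labelled libraries, a relative difference of 2.61 on the log2 scale (SE 0.34). At chr11:69010601-69012800, 2141 bp from Pfas, a purine synthesis gene, folds were 7.94 and 6.65 against 2.72 and 2.81, a difference of 2.61 (SE 0.30). Selenof, which encodes a selenoprotein of the endoplasmic reticulum, lay nearest a region with 7.18 and 6.35 against 2.94 and 3.27. The remaining 5 were nearest Pxt1, H2-T24, Hs6st1, Adgrg1 and Cep85, with relative differences of 1.98 to 2.14. The Cep85 region has 4 near-identical stretches elsewhere.

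Toward iMK the first region covered Rny1, a gene of the small Y RNAs that bind the Ro protein, at chr6:47787401-47789600. Its folds were 2.96 and 3.31 in ERY and 35.5 and 34.4 in the iMK-labelled libraries, a relative difference of -2.27 (SE 0.33). The start of the long noncoding RNA gene B930059L03Rik, 8652 bp from Dync1h1, had folds of 3.59 and 3.33 against 25.8 and 27.5, and H3K4me3 in all 4 lists. The other 3 were nearest Kmt2e, a chromatin regulator gene, Ubash3b, which encodes a tyrosine phosphatase that dampens receptor signalling, and Pum2, which encodes an RNA-binding repressor of translation, with folds of 2.24 to 4.69 in ERY and 17.1 to 29.2 in the iMK-labelled libraries.

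Base composition of the members lay between that of specific distal regions and of promoters. GC content was 46.9%, against 45.0% for ERY-only, 46.3% for iMK-only distal regions and 49.1% for regions near a protein-coding TSS in all 4 lists. The median ratio of observed to expected CpG was 0.250, against 0.183, 0.203 and 0.516. For the 770 members over 1 kb from any TSS it was 0.234. Repeats masked in the genome made up 23.9% of the member bases, 24.6% of ERY-only and 22.6% of iMK-only bases.

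Motif letters were counted on both strands in 200-base tiles. The GATA letters AGATAA were found in 10.6% of member tiles, 13.0% of ERY-only and 10.03% of iMK-only tiles. The ETS letters CAGGAAGT were found in 2.20%, 1.75% and 2.73% in the same order. Over their whole width the members thus lay between the specific classes for both. RUNX letters TGTGGTT stood at 5.52%, 5.20% and 5.67%, and the E-box CAGATG at 15.0%, 15.7% and 15.4%. The letters for NRF1, SP, CRE and CTCF were more frequent in members than in either specific class. NRF1 letters GCGCATGCG stood at 0.169%, 0.0292% and 0.0597%, SP letters GGGGCGGGG at 1.08%, 0.419% and 0.698%, CRE letters TGACGTCA at 0.291%, 0.107% and 0.180%, and CTCF letters AGGGGGCG at 0.493%, 0.219% and 0.349%. In promoter tiles of all 4 lists these motifs stood at 0.306%, 2.49%, 0.332% and 1.36%.

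The bases covered by all 4 lists were richer still in these letters. Of the 6526 tiles within them, NRF1 letters were in 0.322%, SP in 2.18%, CRE in 0.521% and CTCF in 0.904%, and the GC-rich ETS letters CCGGAAGT in 0.919%, against 0.371% of all member tiles. GATA letters were in 9.98%, ETS letters CAGGAAGT in 2.96% and RUNX letters in 4.80%. The specific classes have no such bases, so only tiles over their whole width can be set beside these. On that unlike basis GATA lay close to the 10.03% of iMK-only tiles and ETS above both classes, so neither lay clearly between them. The remaining motifs in members were MYB CAACTG at 9.97%, AP-1 TGACTCA at 3.92%, KLF CCACACCC at 2.20%, NFE2 GCTGAGTCA at 0.493%, ISRE GAAAGTGAA at 0.455%, STAT TTCCNGGAA at 0.523% and CEBP TTGCGCAA at 0.0253% of tiles. Each NFE2 match contains an AP-1 match, and SP and CTCF letters can overlap. The rise in SP, CTCF, NRF1 and CRE letters was also seen in regions near a protein-coding TSS in all 4 lists. Over their whole width and over bases of all 4 lists, SP matches per kb were 0.156 and 0.312 and CTCF matches 0.0727 and 0.151. NRF1 matches were 0.0262 and 0.0626 and CRE matches 0.0173 and 0.0372. GC content differed between the classes as given above. The shares describe sequence and not binding, and no test was run over regions.

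**Figure D5:**
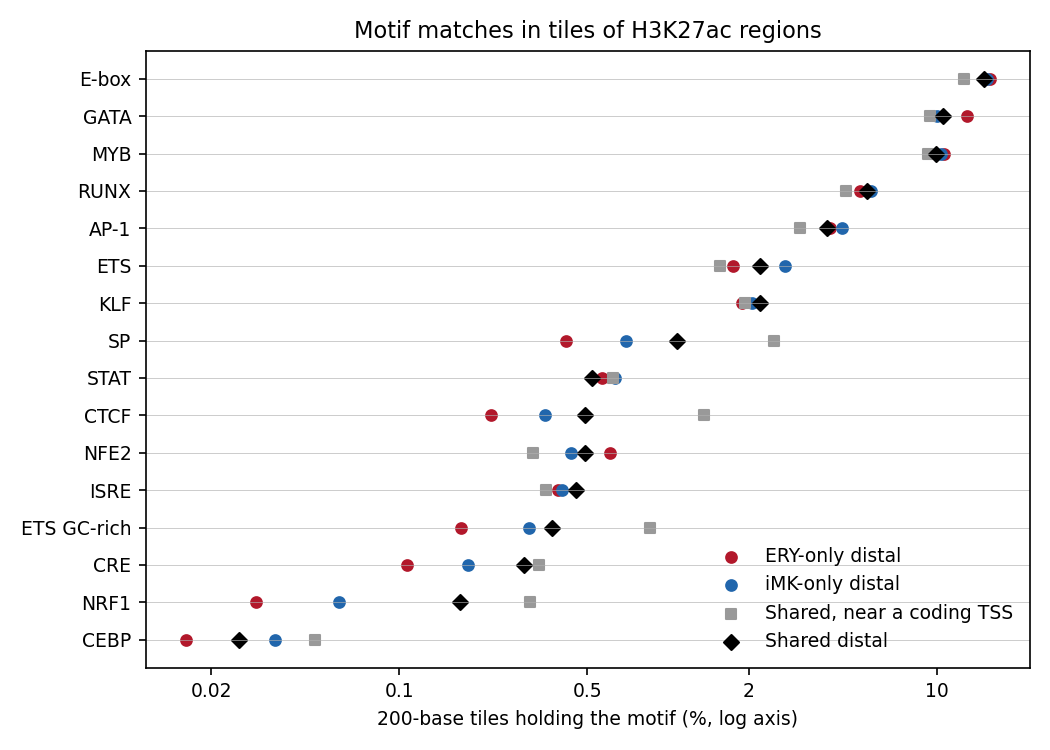
Percent of 200-base tiles that hold each motif on either strand (log axis), for shared distal regions (black), ERY-only distal (red), iMK-only distal (blue) and regions near a protein-coding TSS in all 4 lists (grey). Black points lie between red and blue for GATA and ETS and to the right of both for SP, CTCF, CRE and NRF1.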

How the data were processed

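ChIP-seq of H3K27ac and H3K4me3 was measured in 8 libraries, 2 per mark and cell type, with 10 input libraries that were not used here. Alignment to mm10 with Bowtie 1.0.0 and peak calling with SICER 1.1 are listed in the submitters' processing notes, and the study's methods name Bowtie and MACS with multiply mapping reads kept. Each deposited peak list gives a fold (the ratio of ChIP to control that the authors computed) and a p-value with a q-value at most 0.01 in the deposited files. All peak edges were multiples of 200 bp and peaks were called per library. Depth is not in the lists, so no interval for counting error can be given.

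Peaks were merged with Python 3.11.15, pandas 2.3.3 and numpy 2.4.6. The TSSs were those of 58784 protein-coding transcripts of GENCODE vM21, in 21864 genes. The covered share (percent of a region under peaks), relative fold (log2 of the length-weighted mean fold less the library's median over regions in all 4 lists) and H3K4me3 covered share were compared between ERY and iMK with limma 3.58.1 in R 4.3.3, moderated with a trend, with Benjamini-Hochberg adjustment over all regions at 0.05, and the fits were tested on simulated data. Sequence came from GRCm38 (mm10, RefSeq) through pysam 0.24.0, and near-identical copies from minimap2 2.31-r1302. Which animals gave each library is not stated, so p-values measure only the spread between these libraries, which may be technical.

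The members, gene lists and motifs were chosen with earlier results of these data known. Named regions were the 10 of highest lowest percentile, up to 8 per direction of relative fold and 4 of covered share among those called, up to 3 per gene list, up to 6 with H3K4me3 in all 4 lists, the 8 genes with most members, and those at the limits of the rule. Regions named beyond these were picked after their values were seen. Alternatives changed the overlap, q-value, TSS set, width, scaling and libraries.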

Additional observations from a re-analysis of the deposited data

How the results depend on the processing

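The number of shared distal regions was 384 when peaks had to cover at least 50% of the region in each list, and stayed between 770 and 1290 under the other 8 alternatives, of which TSSs of all transcripts of protein-coding genes (1041) and at least 1 base covered by all 4 lists (1038) were chosen after seeing the data. Leaving out each library in turn gave 1325 to 1628. For the covered share of H3K27ac, centring each library moved the members called to 116 higher in ERY and 281 higher in iMK, and leaving out each library gave 177 to 193 calls, 106 to 152 toward ERY and 41 to 75 toward iMK. For relative fold, quantile normalization gave 20 calls (15 toward ERY), no centring 519 (3 toward ERY and 516 toward iMK) and the highest fold of a region 13 (11 and 2), against 34. Leaving out each library gave 0 to 244, 0 to 202 toward ERY and 0 to 42 toward iMK. None of the 13 regions named for relative fold reversed. Without centring 5 lost the call, those nearest Hs6st1, Pxt1, H2-T24, Cep85 and Adgrg1, all named toward ERY. With the highest fold 4 lost it, with quantile normalization 2 and without the limma trend 1. All 13 lost the call without ERY replicate 1 and without ERY replicate 2, although the differences stayed close (2.61 at Il10rb against 2.66 and 2.56), and none without an iMK replicate. The covered share of H3K4me3 gave 0 calls under the other filters, and 0 to 222 when each library was left out, 0 toward ERY and 0 to 222 toward iMK. Members with H3K4me3 in at least 1 list numbered 338 to 537 and in all lists 82 to 130 when each library was left out. In the bases covered by all 4 lists the matches per kb of 14 of 16 motifs moved by more than their margin. No paired analysis was possible because the labels number no replicates.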
